A study of Mus musculus with 4 samples.

Results

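The 10 genes described here encode the main parts of the basement membrane and a pair of proteins that handle its collagen: Col4a1 and Col4a2 (collagen IV chains), Lama1, Lamb1 and Lamc1 (the chains of laminin-111), Nid1 and Nid2 (nidogens), Hspg2 (perlecan), Sparc (osteonectin) and Serpinh1 (the collagen chaperone HSP47). They were chosen by name, with earlier results of these data known. Their rows are those whose Ensembl identifier carries one of these symbols in GENCODE M21 on build GRCm38. All 10 were found among 55401 gene rows. Messenger RNA was sequenced in 4 libraries of EB3 mouse embryonic stem cells grown on gelatin in serum with LIF, the cytokine that keeps them undifferentiated. The groups were EB3-derived cells with genotype NUP98-HOXA9 (2 libraries, replicates 1 and 2), EB3-derived cells labelled wild type with an empty vector (1 library), and parental wild-type EB3 cells (1 library). NUP98-HOXA9 is a leukaemia fusion of a nucleoporin's phenylalanine-glycine repeats to the homeodomain of HOXA9. The labels do not say which promoter drives it, or whether the NUP98-HOXA9 libraries are separate clones or cultures. The spread within that pair may therefore be technical. Spread within the wild-type pair includes any difference between empty-vector and parental cells. Each p-value rests on these 4 libraries only. The libraries held 19021386 to 21151729 expected counts, the number of reads that the RSEM software assigns to genes. Hoxa9, which checks the construct, had 3785 and 2790 expected counts in NUP98-HOXA9 replicates 1 and 2, against 0 in the empty-vector library and 0 in the parental library. Nup98 stood at 99.9 and 93.4 TPM in the NUP98-HOXA9 libraries, against 51.6 TPM with the empty vector and 47.3 TPM in parental cells. Paired values for wild-type cells are those of the empty-vector and the parental library. Reads from a construct and from the cell's own Hoxa9 cannot be told apart in these gene-level counts.

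A basement membrane is the thin sheet of matrix under epithelia. Laminin trimers of an alpha, a beta and a gamma chain assemble on the cell surface, collagen IV trimers form a second network, and nidogen and perlecan tie the networks together. In the early mouse embryo the parietal endoderm, which lines the yolk cavity, lays down a very thick basement membrane called Reichert's membrane, and its cells are known for large amounts of collagen IV, laminin-111 and SPARC. Embryonic stem cells also make laminin, and the collagen IV protomer found in most tissues holds alpha1 and alpha2 chains in unequal numbers, with alpha1 in excess.

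Col4a1 and Col4a2 start next to each other and run in opposite directions, so their start region is shown first as the DNA that the most changed pair has in common. In GENCODE M21, Col4a1 lies on chromosome 8 from 11198423 to 11312826 on the minus strand and Col4a2 from 11312805 to 11449287 on the plus strand, so the 2 genes overlap by 22 bases at their starts. The RefSeq promoter windows (GRCm38.p6, 250 bases before the start to 50 after) share 78 bases and together span 522 bases. Serpinh1, whose product binds procollagen, is shown beside them as the chaperone that passed the test. Capitals mark the GC box (GGGCGG) and the CCAAT box (CCAAT) on either strand.
Col4a1 (chr8:11312777-11313076, minus strand): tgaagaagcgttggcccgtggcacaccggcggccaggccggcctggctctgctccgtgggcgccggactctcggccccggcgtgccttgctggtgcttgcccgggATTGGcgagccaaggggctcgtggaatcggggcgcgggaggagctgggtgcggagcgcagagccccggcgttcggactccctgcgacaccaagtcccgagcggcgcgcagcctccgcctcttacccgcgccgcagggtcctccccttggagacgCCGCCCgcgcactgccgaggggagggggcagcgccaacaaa
Col4a2 (chr8:11312555-11312854, plus strand): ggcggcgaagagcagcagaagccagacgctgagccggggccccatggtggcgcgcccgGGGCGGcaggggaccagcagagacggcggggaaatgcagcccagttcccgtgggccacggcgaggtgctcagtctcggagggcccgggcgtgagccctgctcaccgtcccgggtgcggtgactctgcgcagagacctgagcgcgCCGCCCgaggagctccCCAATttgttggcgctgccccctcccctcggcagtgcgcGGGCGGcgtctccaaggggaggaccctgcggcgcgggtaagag
Serpinh1 (chr7:99353190-99353489, minus strand): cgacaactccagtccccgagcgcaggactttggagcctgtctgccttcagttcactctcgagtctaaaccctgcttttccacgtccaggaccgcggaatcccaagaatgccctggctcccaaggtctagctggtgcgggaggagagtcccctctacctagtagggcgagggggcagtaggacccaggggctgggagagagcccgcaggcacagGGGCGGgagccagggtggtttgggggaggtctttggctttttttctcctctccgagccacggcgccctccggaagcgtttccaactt

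Over the joint Col4a1 and Col4a2 region there were 3 GC boxes, 1 of which lies in both windows, and 2 CCAAT boxes. RefSeq windows were given for 7 of the 10 genes. A GC box was found in 6 of these 7 windows, against 35.7% of all 32851 windows, and a CCAAT box in 4 of 7, against 37.4%. The GATA letters (AGATAA as well as TGATAA, and likewise AGATAG as well as TGATAG, on both strands) were in 0 of the 7 windows, against 29.8% of all windows. The letters ACAAT, 1 form of a SOX site, searched on both strands like all the motifs, were in 0 of 7 as well, against 31%. Other forms were not searched, so this count does not show that SOX sites are absent. TATAAA was in 0 of 7 (13.6% of all), and the heat shock half-site pair GAANNTTC in 0 of 7 (7.86% of all). The windows of Col4a1 and Col4a2 were 74% and 73.7% G and C, against a median of 52.7% over all windows. Since 1 GC box is shared, these 2 windows are not independent. The Sparc window, with 0 GC boxes, sits 3103 bases inside the GENCODE gene.

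In NUP98-HOXA9 cells 5 of the 10 genes were higher than in wild-type cells: Col4a1, Col4a2, Lama1, Serpinh1 and Sparc, by 2.63-fold (Sparc) to 19.6-fold (Col4a2). The other 5, Lamb1, Lamc1, Nid1, Nid2 and Hspg2, did not pass the test. Calls come from edgeR's quasi-likelihood test on the counts of both NUP98-HOXA9 libraries against both wild-type libraries, with a Benjamini-Hochberg adjusted p under 0.05 over 16511 genes. In bulk RNA, more cells of a type and more RNA per cell cannot be told apart. Among all genes tested, 2.83% were higher and 0.581% lower. Since the 10 were chosen with earlier results of these data known, these shares describe them and do not test them as a set. None of the 10 was lower by edgeR, 0 were lower at an unadjusted p under 0.05, and 0 were lower by DESeq2. All 10 genes were tested, and the lowest level of any of them in a wild-type library was 7.16 CPM (read counts per library total, after TMM scaling), so each could have fallen. On the CPM scale both NUP98-HOXA9 libraries lay above both wild-type libraries for 9 genes (27.1% of all genes) and below them for 1, Nid2 (24.2% of all genes). The median log2 fold change of the 10 was 1.05, and that of all genes tested was 0.00. Summed TPM (the deposited level, scaled for transcript length and depth) of the 10 was 1261 and 1091 in NUP98-HOXA9 replicates 1 and 2, against 607 in the empty-vector library and 553 in the parental library.

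**Figure D1:**
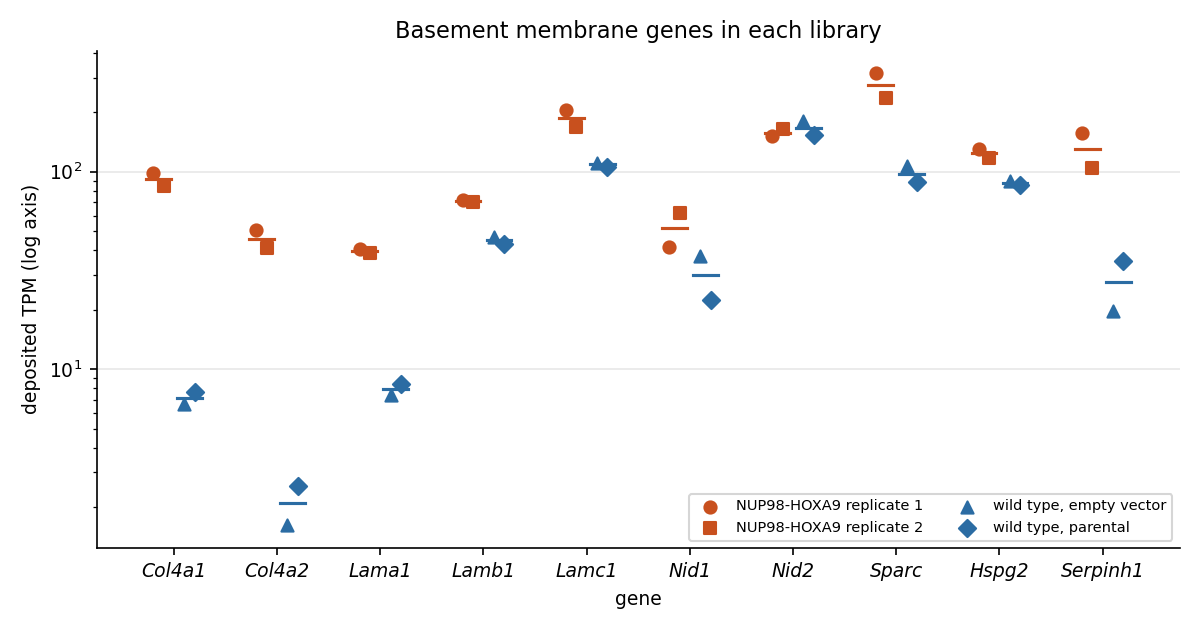
Deposited TPM (log axis) of the 10 basement membrane genes in each library; points are libraries and short lines are group means. Col4a1, Col4a2 and Lama1 stand far apart between the groups, Sparc and Serpinh1 less so, and the points of Nid2 overlap between 151 and 180 TPM.

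Collagen IV chains showed the largest differences of the 10. Col4a1, the alpha1 chain, stood at 98.4 and 85.1 TPM in NUP98-HOXA9 replicates 1 and 2, against 6.69 TPM in the empty-vector library and 7.67 TPM in the parental library. Both NUP98-HOXA9 libraries were high, and the groups did not overlap. By counts it was 16-fold higher, with a range of 13.5 to 18.9 at 1 standard error (log2 fold change 4, SE 0.25, edgeR adjusted p = 0.00242). Col4a2, the alpha2 chain, stood at 50.4 and 41.2 TPM in NUP98-HOXA9 cells, against 1.62 TPM with the empty vector and 2.57 TPM in parental cells. It had the lowest wild-type level of the 10 and did not overlap between groups (log2 fold change 4.29, SE 0.31, edgeR adjusted p = 0.00412). Against the empty vector alone, the only control for the vector, the log2 fold changes were 4.24 (SE 0.32) for Col4a1 and 4.73 (SE 0.33) for Col4a2. Both genes lie on chromosome 8, where the median log2 fold change of 841 tested genes was -0.19 against both wild-type libraries, 0.02 against the empty vector and -0.34 against the parental line. On the other 8 chromosomes that hold the 10 genes, that median lay between -0.06 and 0.04. The size of the Col4a1 difference depends on the scale, since the ratio of group means was 12.8 by TPM and 16 by CPM. RSEM's weighted transcript length for Col4a1 was 5826 and 5563 bases in NUP98-HOXA9 replicates 1 and 2, against 4013 with the empty vector and 4442 in parental cells; its 8 annotated transcripts run from 416 to 6615 bases. Annotated antisense genes overlap both Col4a1 and Col4a2, and the strand setting of the counting is unknown.

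The 2 chains also differed in their ratio. TPM of Col4a1 over Col4a2 was 1.95 and 2.07 in the NUP98-HOXA9 libraries, against 4.13 in the empty-vector library and 2.98 in the parental library. By CPM, which leaves out transcript length, the ratio was 1.82 and 1.81 in NUP98-HOXA9 cells, against 2.55 and 2.04 in wild-type cells, so the groups lay closer together on that scale. The other collagen IV genes, Col4a3 to Col4a6, which make up the collagens of kidney, lung and other special basement membranes, stayed at 0.68 TPM or below in every library. Col4a1 and Col4a2 together supplied 66% plus 33.8% of collagen IV TPM in NUP98-HOXA9 replicate 1 and 66.9% plus 32.4% in replicate 2. Their shares were 72.3% and 17.5% with the empty vector and 69.8% and 23.4% in parental cells, where Col4a5 held 7.35% and 3.64% of a far smaller family total (9.25 and 11 TPM).

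Of the laminin-111 chains only the alpha chain passed the test. Lama1, whose chain gives laminin-111 its cell-binding end, stood at 40.8 and 38.9 TPM in NUP98-HOXA9 cells, against 7.39 TPM with the empty vector and 8.42 TPM in parental cells. These were the 2 closest NUP98-HOXA9 values among the genes that passed, and the groups were far apart. The gene was 4.5-fold higher (log2 fold change 2.17, SE 0.18, edgeR adjusted p = 0.00621), and 2.20 on the log2 scale against the empty vector alone (SE 0.26). Lamb1, the beta1 chain, stood at 71.5 and 70.1 TPM in NUP98-HOXA9 cells, against 46.8 TPM with the empty vector and 42.9 TPM in parental cells. Its groups did not overlap either, but the difference of 0.61 on the log2 scale (SE 0.16) missed the threshold (edgeR adjusted p = 0.0954). Lamc1, the gamma1 chain shared by most laminins, stood at 205 and 169 TPM in NUP98-HOXA9 cells, against 111 TPM with the empty vector and 106 TPM in parental cells. It too missed the threshold without overlap (log2 fold change 0.72, SE 0.18, edgeR adjusted p = 0.0796). DESeq2 called Lamb1 (adjusted p = 0.0424) and Lamc1 (adjusted p = 0.0189), which made 7 genes higher, while it called 5.57% of all genes higher.

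Wild-type cells had far more beta1 and gamma1 than alpha1 message per length. TPM of Lamb1 over Lama1 was 1.75 and 1.8 in NUP98-HOXA9 replicates 1 and 2, against 6.34 with the empty vector and 5.1 in parental cells. The ratio of Lamc1 to Lama1 was 5.03 and 4.35 in NUP98-HOXA9 cells, against 15 and 12.6 in wild-type cells, and Lama1 remained the least abundant of the 3 in all 4 libraries. Among alpha chains Lama5, the broadly made chain of laminin-511, held most of the TPM everywhere: 83.2% and 79.5% in NUP98-HOXA9 cells, against 95.3% with the empty vector and 92.4% in parental cells. Lama1 held 15.8% and 19% in NUP98-HOXA9 cells, against 4.29% and 6.79% in wild-type cells. Lama5 itself stood at 214 and 163 TPM in NUP98-HOXA9 cells, against 164 TPM with the empty vector and 115 TPM in parental cells, with a log2 fold change of 0.32 (SE 0.23, edgeR adjusted p = 0.518). Lamb1 held 68.7% and 68.7% of beta chain TPM in NUP98-HOXA9 cells, against 69.5% and 63.9% in wild-type cells, and Lamc1 92.9% and 94.3% of gamma chain TPM in NUP98-HOXA9 cells, against 96.7% and 95% in wild-type cells. The beta and gamma families had nearly the same leading chain share in all 4 libraries. Shares are descriptions with no test.

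**Figure D2:**
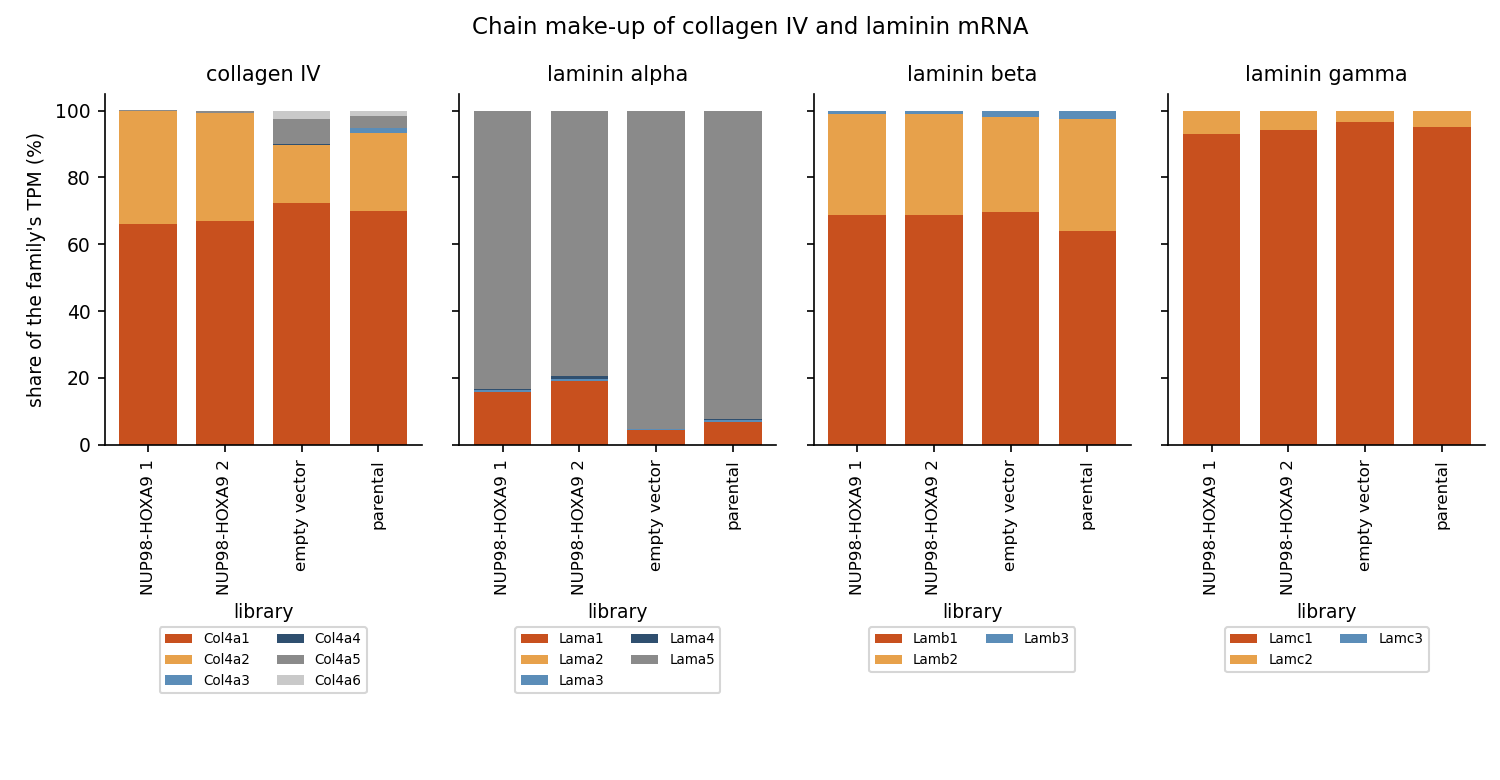
Share of each chain in the summed TPM (percent) of the collagen IV, laminin alpha, beta and gamma families, 1 bar per library. In the NUP98-HOXA9 bars Col4a2 takes 33.8% and 32.4% of collagen IV, against 17.5% and 23.4% in wild-type cells, and Lama1 takes 15.8% and 19% of the alpha chains, against 4.29% and 6.79% in wild-type cells, while the beta and gamma bars look alike.

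Of the linkers between the 2 networks, Nid1, Nid2 and Hspg2, none passed the test in either direction. Nid1, nidogen-1, which binds the gamma1 chain and collagen IV, stood at 41.8 and 62 TPM in NUP98-HOXA9 cells, against 37.4 TPM with the empty vector and 22.4 TPM in parental cells. Replicate 2 was the high NUP98-HOXA9 library here, the wild-type libraries differed as much, and the difference of 0.68 on the log2 scale (SE 0.27) missed the threshold (edgeR adjusted p = 0.224). Nid2, nidogen-2, stood at 151 and 165 TPM in NUP98-HOXA9 cells, against 180 TPM with the empty vector and 153 TPM in parental cells. These TPM ranges overlap, the fold change was the only negative one of the 10 (log2 -0.19, SE 0.16, edgeR adjusted p = 0.589), and an annotated antisense gene, Rtraf, overlaps Nid2. TPM of Nid2 over Nid1 was 3.6 and 2.67 in NUP98-HOXA9 cells, against 4.8 and 6.84 with the empty vector and in parental cells. Hspg2, the heparan sulfate proteoglycan perlecan, stood at 130 and 118 TPM in NUP98-HOXA9 cells, against 89.8 TPM with the empty vector and 85.5 TPM in parental cells. The groups did not overlap, and the log2 fold change of 0.38 (SE 0.17) missed the threshold (edgeR adjusted p = 0.28).

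The genes for the collagen-handling proteins were both higher. Sparc, which binds collagen IV and is secreted in bulk by parietal endoderm, stood at 315 and 237 TPM in NUP98-HOXA9 cells, against 107 TPM with the empty vector and 89.1 TPM in parental cells. It was the most abundant of the 10 in NUP98-HOXA9 cells and 2.63-fold higher (log2 fold change 1.39, SE 0.21, edgeR adjusted p = 0.0227). Its call was lost against a single control (log2 1.37, adjusted p = 0.0863 for the empty vector; 1.41 and 0.0788 for the parental line). It was also lost without NUP98-HOXA9 replicate 1 (adjusted p = 0.074), without the parental library (0.0569) and without the empty-vector library (0.0509). Serpinh1 (HSP47), the chaperone of the endoplasmic reticulum that holds procollagen triple helices until export, stood at 157 and 104 TPM in NUP98-HOXA9 cells. Its level was 19.8 TPM with the empty vector and 35.4 TPM in parental cells. Each group spread widely, without overlap, and the gene was 4.36-fold higher (log2 fold change 2.12, SE 0.38, edgeR adjusted p = 0.0369). The choice of control mattered: the log2 fold change was 2.75 against the empty vector (adjusted p = 0.0468) and 1.69 against the parental line (adjusted p = 0.0922). The call was also lost without NUP98-HOXA9 replicate 1 (log2 1.76, adjusted p = 0.163) and without the empty-vector library (log2 1.67, adjusted p = 0.0616).

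**Figure D3:**
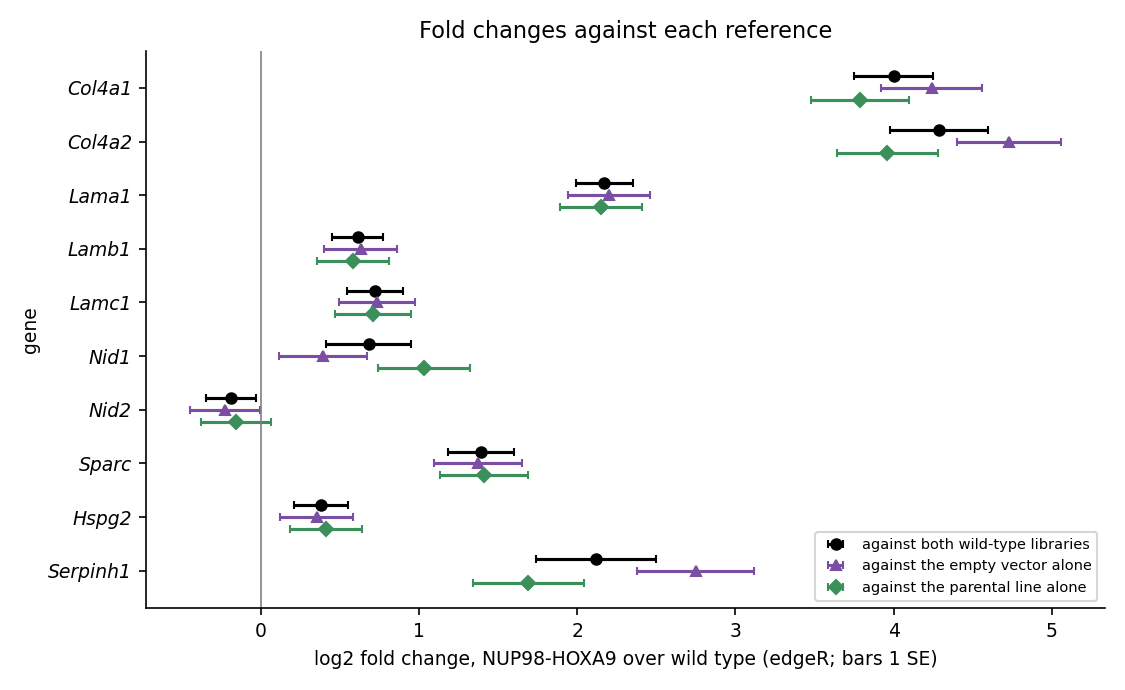
Log2 fold changes (edgeR, bars 1 SE) of the 10 genes in NUP98-HOXA9 over wild-type libraries, against both controls and against each alone. Col4a1, Col4a2 and Lama1 keep values of 2.15 or more with each reference, and Serpinh1 moves most, between 1.69 and 2.75.

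Against the empty vector alone 4 of the 10 were higher (Col4a1, Col4a2, Lama1 and Serpinh1), while 0.388% of all genes were. Against the parental line alone it was 3 (Col4a1, Col4a2 and Lama1), while 0.509% of all genes were. These comparisons share the NUP98-HOXA9 libraries. Each control alone is 1 library, so the spread was taken from the NUP98-HOXA9 pair. A call lost against 1 control alone therefore does not show that the controls differ. Within the NUP98-HOXA9 pair, 7 of the 10 genes stood higher in replicate 1, by up to 0.65 on the log2 CPM scale for Serpinh1; Lamb1, Nid1 and Nid2 stood higher in replicate 2. In order of mean TPM, NUP98-HOXA9 cells ran from Sparc (276) through Lamc1 (187), Nid2 (158), Serpinh1 (131), Hspg2 (124), Col4a1 (91.8), Lamb1 (70.8), Nid1 (51.9) and Col4a2 (45.8) to Lama1 (39.8). In wild-type cells the order was Nid2 (167), Lamc1 (109), Sparc (97.9), Hspg2 (87.7), Lamb1 (44.9), Nid1 (29.9), Serpinh1 (27.6), Lama1 (7.9), Col4a1 (7.18) and Col4a2 (2.09). Among neighbours in the NUP98-HOXA9 order, the ranges of the 2 libraries overlapped for Nid2 and Serpinh1, Serpinh1 and Hspg2, and Nid1 and Col4a2. In the wild-type order they overlapped for Lamc1 and Sparc, Sparc and Hspg2, Nid1 and Serpinh1, and Lama1 and Col4a1. Against both wild-type libraries, the 3 genes at the bottom of the wild-type order had the highest folds, with Lama1 (log2 2.17) barely above Serpinh1 (log2 2.12). Against the empty vector alone Serpinh1 (log2 2.75) stood above Lama1 (log2 2.20). The wild-type level is also the denominator of the fold.

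Of the genes whose profile over the 4 libraries lay nearest to that of Col4a1 (Euclidean distance of centred log2 CPM over 4 libraries, among 9287 genes averaging 10 CPM or more), Col4a2 was first at 0.39. Then came the endoderm factor Gata4 (0.42), the axonemal dynein gene Dnaic2 (0.66) and Fignl2 (0.67). Among the 10, Lama1 ranked 66th (distance 1.86), Serpinh1 72nd (1.88) and Sparc 212th (2.65), and Nid2 was the farthest (4.22). The distance describes these 4 libraries and carries no test.

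Other basement membrane genes were called about as often as all genes, 1 of 28 tested against the background of 2.83%. Of the 33 listed, the higher one was Fbln1, the matrix glycoprotein fibulin-1, at 101 and 89.9 TPM in NUP98-HOXA9 cells, against 36.6 TPM with the empty vector and 42.3 TPM in parental cells (log2 fold change 1.16, SE 0.19, edgeR adjusted p = 0.0298). The Fbln1 call was lost against the empty vector alone (adjusted p = 0.0843), against the parental line alone (0.112), and without the parental library (0.0526), the empty-vector library (0.0877) or NUP98-HOXA9 replicate 1 (0.117). The list's median log2 fold change was 0.48, and edgeR called no listed gene lower. At an unadjusted edgeR p under 0.05, 9 listed genes were higher and 2 lower. The share of all genes at that level was not computed, so these counts cannot be read against a background. DESeq2 called 2 listed genes higher and 1 lower, against 919 higher (5.57%) and 436 lower among all genes. Fn1, fibronectin, the list's most abundant gene by TPM, stood at 300 and 382 TPM in NUP98-HOXA9 cells, against 463 TPM with the empty vector and 445 TPM in parental cells (log2 -0.49, SE 0.18, edgeR adjusted p = 0.186). Col18a1, the collagen that releases endostatin, stood at 233 and 219 TPM in NUP98-HOXA9 cells, against 227 and 166 TPM in wild-type cells (log2 0.09, SE 0.20).

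Of 28 genes for collagen folding, modification, cross-linking and export, all tested, 5 were higher, against 2.83% of all genes. The list median was 0.21. Kdelr3, which returns endoplasmic reticulum proteins such as HSP47 from the Golgi, stood at 53.5 and 45.6 TPM in NUP98-HOXA9 cells, against 5.33 TPM with the empty vector and 7.41 TPM in parental cells (log2 2.84, SE 0.29, edgeR adjusted p = 0.00863). The prolyl 4-hydroxylase subunit P4ha2 stood at 38.8 and 71.2 TPM in NUP98-HOXA9 cells, against 17.9 and 11.9 TPM in wild-type cells (log2 1.66, SE 0.29), and its partner form P4ha1, named after its values were seen, at 65 and 80.8 TPM in NUP98-HOXA9 cells, against 28.4 and 18.4 TPM in wild-type cells. Both hydroxylate the prolines that stabilise the triple helix. Loxl2, a lysyl oxidase that cross-links collagen IV, stood at 30.9 and 36 TPM in NUP98-HOXA9 cells, against 11.5 and 7.53 TPM in wild-type cells (log2 1.75, SE 0.21, edgeR adjusted p = 0.0139). Colgalt2, a collagen galactosyltransferase, had 46 counts over the NUP98-HOXA9 group and 1 over the wild-type group, or 41.8 times as many per read sequenced (exact 95% interval 7.14 to 1686, counting error only). It passed the filter on low counts through the NUP98-HOXA9 libraries alone, and its edgeR call (adjusted p = 0.0399) was lost with DESeq2 (0.0539), both limma fits (0.155 and 0.0665), either control alone and any 1 library left out. The most abundant of the others by CPM, P4hb (log2 0.27, SE 0.17) and Sec31a (log2 0.05, SE 0.18), a disulfide isomerase and a coat protein of export vesicles, did not pass. The P4ha1 call was lost without either NUP98-HOXA9 library, and that of P4ha2 without either wild-type library or NUP98-HOXA9 replicate 2. Against the empty vector alone only Kdelr3 of this list passed.

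Of 11 listed receptors for this matrix 10 were tested, 2 were higher, 1 was lower and 7 did not pass, with a median of 0.72. Among all genes tested 2.83% were higher and 0.581% lower. Itga3, an integrin chain that binds laminins with alpha3 and alpha5 chains, stood at 86.2 and 53.2 TPM in NUP98-HOXA9 cells, against 11.2 TPM with the empty vector and 18.2 TPM in parental cells (log2 2.15, SE 0.35, edgeR adjusted p = 0.0298). Dag1, dystroglycan, a receptor for laminin and perlecan, stood at 133 and 117 TPM in NUP98-HOXA9 cells, against 53.2 and 48.5 TPM in wild-type cells (log2 1.20, SE 0.18, edgeR adjusted p = 0.0227). Ddr1, a collagen-binding receptor kinase, was the lower one, at 13 and 16.7 TPM in NUP98-HOXA9 cells, against 36.4 and 35.3 TPM in wild-type cells (log2 -1.36, SE 0.20, edgeR adjusted p = 0.0227). Itgb1, the common beta1 chain, had a log2 fold change of -0.07 (SE 0.28), and Bcam, the Lutheran glycoprotein that binds laminin, had one of 0.92 (SE 0.49), with 262 and 82.2 TPM in the NUP98-HOXA9 libraries. Against either control alone, 0 of these receptors passed. Without NUP98-HOXA9 replicate 1 all 3 calls were lost; that of Itga3 was also lost without the empty-vector library, and that of Dag1 without either wild-type library.

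Of 13 genes for matrix turnover, all tested, 2 were higher (median 0.67), against 2.83% of all genes. Mmp9, a collagen IV-cutting protease, stood at 7.05 and 6.83 TPM in NUP98-HOXA9 cells, against 0.42 TPM with the empty vector and 1.34 TPM in parental cells (log2 2.81, SE 0.51). Htra1, a secreted serine protease, stood at 16.9 and 15.2 TPM in NUP98-HOXA9 cells, against 5.63 and 5.74 TPM in wild-type cells (log2 1.45, SE 0.28). The cathepsins Ctsl (log2 0.10, SE 0.27) and Ctsb (log2 0.73, SE 0.20) did not pass. Fibrillar collagens, which share HSP47 and prolyl hydroxylases with collagen IV, summed to 34.4 and 38.4 TPM in NUP98-HOXA9 cells, against 17.5 and 24.5 TPM in wild-type cells. Of 10 tested out of 11, only Col5a3 was higher (log2 1.68, SE 0.32, edgeR adjusted p = 0.0437), against the same 2.83% of all genes. The list median was 0.88, and Col1a1 (log2 0.90, SE 0.30) and Col5a1 (log2 0.43, SE 0.31) did not pass. The calls of Mmp9, Htra1 and Col5a3 were lost against either control alone; those of Htra1 and Col5a3 were lost without any 1 library, and that of Mmp9 without the empty-vector library or either NUP98-HOXA9 library.

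Markers of cell types that make basement membrane were set beside these values. Of 15 parietal endoderm markers, all tested, 9 were higher, against 2.83% of all genes, with a median of 2.73. Some listed genes, such as Gata4, Gata6 and Sox17, are endoderm factors that are not particular to parietal endoderm. The count therefore does not tell parietal from visceral endoderm. The wild-type mean was at least 1 CPM for 10 of the 15, so 5 could hardly have fallen. Of these 5, Srgn, Sox17, Gata6 and Sox7 passed the filter on low counts through the NUP98-HOXA9 libraries alone. They could only be called higher or not at all, and the count and median include them. The list, without any of the 10 genes, summed to 582 and 444 TPM in NUP98-HOXA9 cells, against 203 TPM with the empty vector and 252 TPM in parental cells. Much of each sum came from Vim and Krt8, which did not pass. Vim had 258 and 184 TPM in NUP98-HOXA9 cells, against 152 and 88.7 TPM in wild-type cells. Krt8 had 118 and 47 TPM in NUP98-HOXA9 cells, against 15.8 and 63.9 TPM in wild-type cells. Srgn, the proteoglycan serglycin, had 723 counts over the NUP98-HOXA9 libraries and 2 over the wild-type libraries. That was 328 times as many per read sequenced (exact 95% interval 90.6 to 2717). The endoderm factor Sox17 had 287 over the NUP98-HOXA9 and 3 over the wild-type libraries, or 86.9 times as many (29.4 to 424). These intervals hold counting error only and leave out the spread between libraries. The endoderm factor Gata6 stood at 10.5 and 13.9 TPM in NUP98-HOXA9 cells, against 0.1 TPM with the empty vector and 0.23 TPM in parental cells, and Sox7, a SOX factor of parietal endoderm, at 8.69 and 5.4 TPM in NUP98-HOXA9 cells, against 0.19 and 0.11 TPM in wild-type cells. The abundant markers Vim (log2 0.71, SE 0.25) and Krt8 (log2 0.92, SE 0.68), which embryonic stem cells also express, did not pass. The remaining markers that did not pass, named after their values were seen, were Krt18 (log2 0.72, SE 0.59), Thbd (log2 0.27, SE 0.56), Fst (log2 0.20, SE 0.60) and Krt19 (log2 -0.18, SE 0.59). Against the empty vector alone the calls of Srgn, Pdgfra, Dab2, Plat and Pth1r were lost, and against the parental line alone those of Dab2, Plat and Pth1r. Without NUP98-HOXA9 replicate 1 the calls of Sox17 (log2 6.31), Pth1r (log2 2.66) and Plat (log2 1.81) were lost. The Plat call was also lost without either wild-type library, and that of Pth1r without the empty-vector library or NUP98-HOXA9 replicate 2.

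Several visceral endoderm markers were at or near 0. Of 18 listed genes 11 were tested and 3 were higher (median 0.65), against 2.83% of all genes. Hnf4a stood at 26.5 and 4.56 TPM in NUP98-HOXA9 cells, against 0.18 TPM with the empty vector and 0.29 TPM in parental cells. Cubn stood at 0.96 and 11.2 TPM in NUP98-HOXA9 cells, against 0.11 and 0.11 TPM in wild-type cells. Dpp4 stood at 23.7 and 27.4 TPM in NUP98-HOXA9 cells, against 4.39 and 2.02 TPM in wild-type cells. The log2 fold changes were 5.92 (SE 0.96, edgeR adjusted p = 0.0298) for Hnf4a, 5.68 (SE 1.13, 0.0474) for Cubn and 2.71 (SE 0.48, 0.0366) for Dpp4. The Hnf4a call was lost against the empty vector (0.236) or the parental line (0.224) alone, without either wild-type library (0.355 and 0.369) and with no filter (0.338). The Cubn call was lost against the empty vector or the parental line alone, and without either wild-type library. It was also lost with no filter (edgeR adjusted p = 0.435), with library totals (edgeR adjusted p = 0.0565) and with both limma fits (limma adjusted p = 0.164 and 0.105). The log2 value of Cubn was 3.06 without NUP98-HOXA9 replicate 2. Dpp4 passed against each control alone but not without NUP98-HOXA9 replicate 1 (0.146) or 2 (0.0843). Apoa4 had 0 counts in all 4 libraries, and Afp, Ttr, Apoa1, Fabp1, Ihh and Cer1 were too low to test. The wild-type mean was at least 1 CPM for 7 of the 11. It was lower for Hnf4a (0.53 CPM with the empty vector, 0.573 CPM in parental cells) and for Cubn (0.849 and 0.885 CPM). Hnf4a and Cubn could therefore hardly have fallen, and the count of higher calls includes them. The abundant members Lrp2 (log2 -0.09, SE 0.38) and Rhox5 (log2 0.01, SE 0.44) did not pass, and the list summed to 142 and 267 TPM in NUP98-HOXA9 cells, against 132 and 149 TPM in wild-type cells.

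Of 14 mesenchyme markers 9 were tested (median 0.07), and only Pdgfrb, a growth factor receptor, was higher, against 2.83% of all genes. Pdgfrb stood at 12.3 and 10.1 TPM in NUP98-HOXA9 cells, against 1.41 TPM with the empty vector and 1.32 TPM in parental cells. The list summed to 64.3 and 95.9 TPM in NUP98-HOXA9 cells, against 45.7 and 106 TPM in wild-type cells, and its most abundant members by TPM, Tagln (log2 -0.90, SE 0.55) and Thy1 (log2 -0.12, SE 0.40), did not pass. Of 10 endothelial markers 9 were tested (median 0.86), and 1 was higher and 1 lower. Among all genes tested 2.83% were higher and 0.581% lower. Cdh5, the endothelial cadherin, had 48 counts over the NUP98-HOXA9 libraries and 3 over the wild-type libraries. Per read sequenced, Cdh5 had 14.5 times as many (exact 95% interval 4.69 to 73, counting error only). It passed the filter through the NUP98-HOXA9 libraries alone, and its edgeR call (adjusted p = 0.0378) was lost with DESeq2 (0.065), both limma fits (0.142 and 0.0704), either control alone and any 1 library left out. Tek, the angiopoietin receptor, was lower at 1.76 and 2.17 TPM in NUP98-HOXA9 cells, against 14.8 and 5.68 TPM in wild-type cells (log2 -2.45, SE 0.47, edgeR adjusted p = 0.0429), a call lost without the empty-vector library or either NUP98-HOXA9 library and against the parental line alone (0.0838). Pecam1 and Eng, which embryonic stem cells also express, did not pass, and the list summed to 92.4 and 106 TPM in NUP98-HOXA9 cells, against 99.7 and 61.8 TPM in wild-type cells. The 7 pluripotency markers were high in all 4 libraries and summed to 3155 and 2810 TPM in NUP98-HOXA9 cells, against 2764 and 2356 TPM in wild-type cells. Of these, 0 passed by edgeR, with Pou5f1 at log2 -0.08 (SE 0.17) and Nanog at 1.11 (SE 0.28, edgeR adjusted p = 0.0867). DESeq2 called 3 of the 7 higher, against 5.57% of all genes. At an unadjusted edgeR p under 0.05, 3 were higher, a level at which the share of all genes was not computed. The part of any of these cell types in the basement membrane values was not tested.

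**Figure D4:**
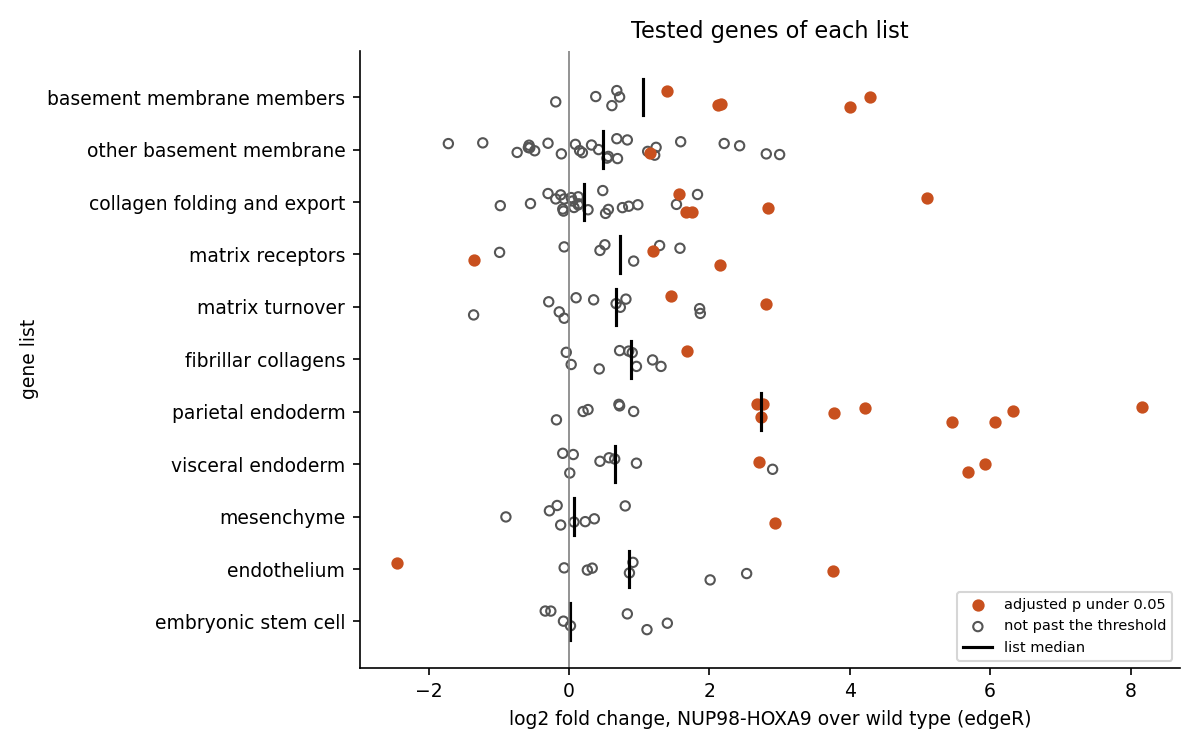
Log2 fold change (edgeR, NUP98-HOXA9 over wild type) of every tested gene in each list; filled points passed an adjusted p under 0.05 and black bars are list medians. The parietal endoderm list has a median of 2.73, the 10 basement membrane genes 1.05 and the mesenchyme list 0.07.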

How the data were processed

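The authors deposited 1 gene table per library with expected counts, TPM and FPKM, per the file headers. Deposited expected counts are RSEM estimates that were rounded before testing. TPM and FPKM were scaled by the authors for transcript length and depth, per the file headers; TPM served for levels, chain shares and an alternative test. FPKM gave nearly the same chain shares within a library. Per the submitters' processing notes the tools were STAR 2.7.10a, RSEM 1.3.3 and DESeq2 1.36.0, on GRCm38/mm10. Their annotation release and strand setting were not given in the sources used here. A stranded kit was used, per the labels' protocols.

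The 10 genes and all lists were chosen with earlier results of these data known. Symbols came from GENCODE M21, which matched 99.5% of rows, and promoters from RefSeq on GRCm38.p6. Protein sequences were not used here. Counts of the 2 NUP98-HOXA9 libraries were tested against the 2 wild-type libraries with edgeR 4.0.16 in R 4.3.3: TMM scaling, filterByExpr (min.count 10), and the robust quasi-likelihood method with 2 residual degrees of freedom (common biological variation 25.6%). The SE is the absolute log2 fold change over the square root of F. A fit with 3 groups gave values against each control.

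Alternatives were DESeq2 size factors, library totals, no filter, a floor of 1 CPM in 2 libraries, a non-robust fit, DESeq2 1.42.0, limma 3.58.1 on log2 TPM plus 1 or plus 0.1, each control alone, and each library left out with the same genes. Named are all 10 genes, the chains of collagen IV and laminin, up to 4 members of a list past the threshold by fold, 2 other members by mean CPM, and the 5 genes nearest to Col4a1, of which 1 is not reported here. Tables were handled with pandas 2.3.3 in python 3.11.15 and drawn with matplotlib 3.10.9.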

Additional observations from a re-analysis of the deposited data

How the results depend on the processing

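Over 14 alternatives, Col4a1, Col4a2 and Lama1 passed in every one, with log2 fold changes of 3.50 to 4.24, 3.93 to 4.73 and 2.10 to 2.32. Sparc passed in 9 (1.15 to 1.60) and Serpinh1 in 11 (1.67 to 2.75). Lamb1 passed with DESeq2 and Lamc1 with DESeq2 and with no filter, while Nid1, Nid2 and Hspg2 passed in none. No fold change of the 10 genes, or of the 27 list genes that passed, changed sign in any alternative run. No paired analysis was possible because only the NUP98-HOXA9 libraries carry replicate numbers. Where leaving out a library or using 1 control alone leaves 1 library in a group, its spread is assumed to be that of the other group. The cause of the differences between settings was not tested.

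The 10 genes had 5 higher calls, 3 against the parental line alone and 3 to 5 with 1 library left out. Among all genes, the 468 higher and 96 lower calls became 1315 and 631 with no filter, 919 and 436 with DESeq2, 64 and 18 against the empty vector, 84 and 20 against the parental line, and 155 to 368 and 10 to 192 with 1 library left out. Against the empty vector the higher calls were 4 for parietal endoderm, 1 for collagen folding and export, 1 for visceral endoderm and 0 for other basement membrane genes, matrix receptors, matrix turnover, fibrillar collagens and endothelium, and 0 receptors were lower. Against the parental line the higher calls were 1 for visceral endoderm, 1 for stem cell markers and 0 for other basement membrane genes, receptors, turnover, fibrillar collagens and endothelium, and 0 receptors and 0 endothelial genes were lower. With no filter, 4 other basement membrane genes, 5 turnover genes, 2 endothelial genes and 3 stem cell markers were higher. DESeq2 called 2 other basement membrane genes, 5 turnover genes, 0 endothelial genes and 3 stem cell markers higher. By limma on TPM with either pseudocount, 0 fibrillar collagens and 0 endothelial genes were higher and 0 endothelial genes lower, the last also with library totals. With 1 library left out, the higher calls were 0 to 1 for other basement membrane genes, 2 to 4 for collagen folding, 0 to 3 for receptors, 0 to 2 for turnover, 0 for fibrillar collagens, 6 to 8 for parietal endoderm, 1 to 2 for visceral endoderm, 0 for endothelium and 0 to 1 for stem cell markers. The lower calls were 0 to 1 for receptors and 0 to 1 for endothelium. In promoter windows of 150 bases before the start, a GC box was in 6 of 7 (32.2% of all). A CCAAT box was in 3 (28.6%), and the GATA letters and ACAAT in 0 (19.8% and 21.4%).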
